A study of Mus musculus with 45 samples.

Results

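FADD and caspase-8 act in the same protein complex, and the question addressed here was how far the ileum of mice without FADD in intestinal epithelial cells differs from that of mice without caspase-8 in the same cells. The comparison rests on 10 of the 45 arrays of the series: 5 arrays of FADD IEC-KO mice against 5 arrays of CASP8 IEC-KO mice, chosen by the genotype in the sample titles. Each array held RNA from a piece of whole ileum of 1 mouse, aged 11 weeks per the sample descriptions. FADD IEC-KO and CASP8 IEC-KO mice have the Fadd or the Casp8 gene deleted in intestinal epithelial cells (IEC), and both keep MLKL. Their own controls were Fadd fl/fl and Casp8 fl/fl mice, which carry the floxed gene and are labelled with no deletion, with 5 arrays in each group. The same line comparison was also available without MLKL, as 5 FADD IEC-KO Mlkl-/- and 5 CASP8 IEC-KO Mlkl-/- arrays. Those mice are labelled Mlkl-/-, which denotes loss of Mlkl in the whole animal. The Cre driver, the strain background and the sex were not given in the sources used here. All groups were kept free of specific pathogens on regular chow.

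As background, FADD is the adaptor that binds the death domains of Fas and, through TRADD, of TNF receptor complexes, and recruits caspase-8. Caspase-8 starts apoptosis and at the same time cleaves the RIPK1 and RIPK3 kinases, which restrains necroptosis. When either protein is missing, RIPK3 can phosphorylate MLKL, which breaches the plasma membrane. In the small intestine of mice, Paneth cells at the crypt base are known to be lost after epithelial deletion of caspase-8 or FADD. Caspase-8 also has functions that do not run through MLKL, such as the cleavage of gasdermin D.

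Values are log2 intensities, so a difference of 1 is a 2-fold difference. Differences are FADD IEC-KO minus CASP8 IEC-KO with standard errors from limma, fitted to all 45 arrays with 1 mean per group. The fit takes 1 estimate of spread per gene for all groups, so standard errors and intervals do not follow the spread of a single group. Adjustment followed Benjamini and Hochberg across 19494 genes, and a gene was called at an adjusted p under 0.05. The exact permutation test of 5 mice against 5 is two-sided and cannot give a p below 0.0079. It gives that value whenever the 2 groups do not overlap, and it is not adjusted over genes.

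The targeted genes checked the labels. Fadd stood at 7.32, 5.96, 6.31, 6.45 and 6.21 in FADD IEC-KO replicates 1 to 5 and at 7.28, 7.68, 7.18, 7.63 and 7.46 in CASP8 IEC-KO replicates 1 to 5. FADD IEC-KO replicate 1 lay among the CASP8 IEC-KO mice, and the other FADD IEC-KO mice lay below all of them. The Fadd difference was -0.998 ± 0.17 (SE, limma adjusted p = 0.00807, exact permutation p = 0.024). Casp8 stood at 11.41, 11.12, 11.15, 11.00 and 11.31 in FADD IEC-KO mice and at 10.89, 9.88, 10.20, 9.63 and 10.57 in CASP8 IEC-KO mice. The groups did not overlap, although CASP8 IEC-KO replicate 1 came close to the lowest FADD IEC-KO mouse. The Casp8 difference was 0.97 ± 0.14 (limma adjusted p = 0.000219, exact permutation p = 0.0079). Both genes therefore followed their labels on average. Fadd stayed within the CASP8 IEC-KO range in FADD IEC-KO replicate 1. Casp8 was graded across the CASP8 IEC-KO mice, from 9.63 to 10.89, with no mouse clearly apart. The ileum pieces also hold cells in which neither gene is deleted, and whether the probes lie in the deleted exons is not stated in the sources used here.

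**Figure D1:**
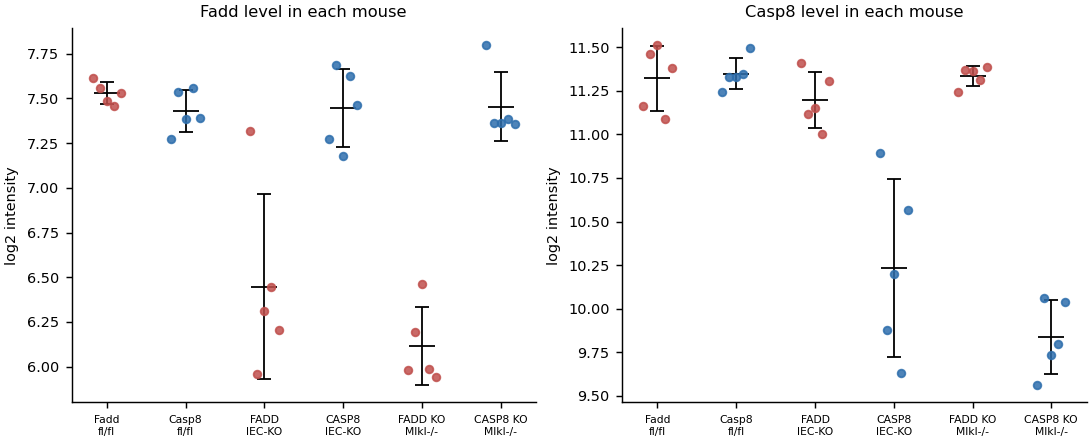
Fadd (left) and Casp8 (right) log2 intensity in every mouse of the 6 groups. Points are mice, the horizontal mark is the mean of 5 mice and the bar 1 SD. FADD IEC-KO replicate 1 (7.32) and CASP8 IEC-KO replicate 1 (10.89) are the highest mice of their groups.

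The targeted genes were also separated in the groups without MLKL. Fadd ranged from 5.94 to 6.46 in FADD IEC-KO Mlkl-/- mice and from 7.36 to 7.80 in CASP8 IEC-KO Mlkl-/- mice. Casp8 ranged from 11.24 to 11.39 in the former and from 9.56 to 10.06 in the latter. No mouse of these groups lay in the range of the other group. Mlkl itself averaged 8.05 ± 0.22 in FADD IEC-KO Mlkl-/- and 8.43 ± 0.22 in CASP8 IEC-KO Mlkl-/- mice, against 9.14 ± 0.41 in FADD IEC-KO and 8.99 ± 0.26 in CASP8 IEC-KO mice (SD, n = 5). In CASP8 IEC-KO Mlkl-/- mice it ranged from 8.18 to 8.66, which overlaps the floxed mice (8.31 to 9.09). Whether the Mlkl probe lies in the deleted part of the gene is not stated in the sources used here, so its signal is a weak check of these labels.

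Few genes were called between the ilea of FADD IEC-KO and CASP8 IEC-KO mice, which does not by itself show that the other genes were alike. Of 19494 genes, 6 were called (0.0308%), 4 higher (0.0205%) and 2 lower (0.0103%) in FADD IEC-KO, and the targeted genes are 2 of the 6. At an unadjusted p under 0.05 there were 1345 genes (6.9%), 666 higher (3.42%) and 679 lower (3.48%). The 95% interval of the difference lay within 2-fold either way for 19274 genes (98.9%) and within 1.5-fold for 17544 genes (90%). These shares were not computed for the other comparisons, which limits what they show about closeness. A difference of at least 2-fold was seen for 15 genes (0.0769%) and one of at least 1.5-fold for 110 (0.564%). The median difference over all genes was 0.0075. For comparison, each knockout against its own floxed controls gave 727 calls for FADD (3.73%) and 813 for caspase-8 (4.17%). These comparisons share the knockout arrays with the direct one.

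By correlation across genes, single mice of either knockout resembled mice of the other as closely as those of their own group. Such correlations mostly follow the fixed level of each gene, which makes them a weak measure of likeness. Pairs with floxed mice are not given here for comparison. Across genes, the 25 pairs of a FADD IEC-KO and a CASP8 IEC-KO array had a median Pearson correlation of 0.986, with a range of 0.980 to 0.989. The 10 pairs within FADD IEC-KO had a median of 0.987 (0.980 to 0.990) and the 10 pairs within CASP8 IEC-KO a median of 0.986 (0.974 to 0.991). Judged by Y-linked genes, each knockout group held 2 mice with high and 3 with low levels, so sex was balanced. Sample titles carried numbers either under 100 or of 200 and over, of unstated meaning: 4 FADD IEC-KO and 3 CASP8 IEC-KO mice had numbers under 100. In that subset the differences were 0.69 for Spink4, 0.70 for Cyb5r3, 0.38 for Sdc4 and -0.99 for Pisd-ps3, and only 1 gene was called. Among the mice with numbers of 200 and over (1 against 2) the differences were 0.41, 0.72, 0.42 and -0.70 in the same order. For these genes the full groups did not overlap, so any subset of the mice had to keep the direction. Only the sizes could have changed.

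Spink4, a secreted peptide of goblet cells that belongs to the Kazal-type protease inhibitors, had the smallest p after the targeted genes. It stood at 11.66, 12.14, 12.03, 12.01 and 11.70 in FADD IEC-KO mice and at 11.18, 11.39, 11.23, 11.31 and 11.28 in CASP8 IEC-KO mice. Every FADD IEC-KO mouse lay above every CASP8 IEC-KO mouse. The difference was 0.63 ± 0.11 (limma adjusted p = 0.0137, exact permutation p = 0.0079), or 1.55-fold. FADD IEC-KO was level with its own floxed controls (0.01, limma adjusted p = 0.98), whereas CASP8 IEC-KO was below its own (-0.44, limma adjusted p = 0.021). Between the Mlkl-/- groups the line difference was 0.14 (limma adjusted p = 0.63).

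Cyb5r3, a reductase that passes electrons from NADH to cytochrome b5, stood at 10.32, 10.36, 10.52, 10.44 and 10.61 in FADD IEC-KO mice. In CASP8 IEC-KO mice it stood at 9.74, 9.54, 9.85, 9.97 and 9.81, again with no overlap. The difference was 0.67 ± 0.13 (limma adjusted p = 0.0385). Sdc4, the cell surface heparan sulfate proteoglycan syndecan-4, stood at 9.39, 9.39, 9.33, 9.25 and 9.40 in FADD IEC-KO mice and at 8.99, 8.94, 8.95, 9.06 and 8.91 in CASP8 IEC-KO mice. The groups did not overlap, and the difference was 0.38 ± 0.08 (limma adjusted p = 0.0479). Like Spink4, Sdc4 was below the floxed controls in CASP8 IEC-KO (-0.45, limma adjusted p = 0.00042). In FADD IEC-KO it differed from its controls by -0.15 (limma adjusted p = 0.29). For Cyb5r3 the value against the own controls was -0.37 for caspase-8 loss and -0.01 for FADD loss, neither called. Cyb5r3 already stood 0.31 higher in Fadd fl/fl than in Casp8 fl/fl mice, a difference that was not called. Neither gene was called between the Mlkl-/- groups, with differences of 0.10 for Cyb5r3 and -0.10 for Sdc4.

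Pisd-ps3, a pseudogene of the phosphatidylserine decarboxylase Pisd, was the only called gene besides Fadd that was lower in FADD IEC-KO. It stood at 8.47, 8.31, 8.03, 8.27 and 8.49 in FADD IEC-KO mice and at 9.45, 9.15, 9.18, 9.23 and 9.14 in CASP8 IEC-KO mice. The groups did not overlap, and the difference was -0.92 ± 0.19 (limma adjusted p = 0.0479). The same difference was present in mice that keep both genes: Pisd-ps3 ranged from 8.20 to 8.42 in Fadd fl/fl and from 9.23 to 9.37 in Casp8 fl/fl mice. That floxed difference was -1.02 ± 0.19 (limma adjusted p = 0.0451), and it was the single call among 19494 genes between the floxed lines (0.00513%). At an unadjusted p under 0.05 the floxed lines differed in 1634 genes (8.38%). Neither knockout moved Pisd-ps3 from its own controls (0.02 and -0.08). Between the Mlkl-/- groups Pisd-ps3 was not called by limma. Whether its probe also measures the parent gene or other copies was not tested.

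**Figure D2:**
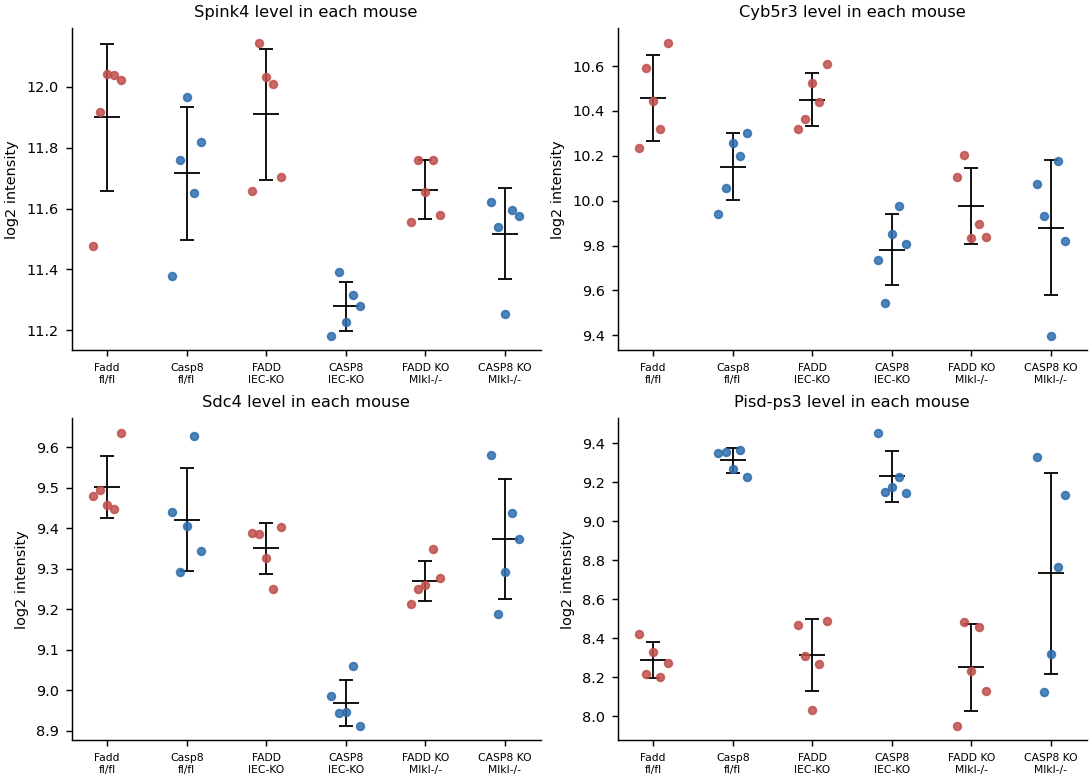
Log2 intensity of the 4 called genes other than Fadd and Casp8 in every mouse of the 6 groups, with the mean of 5 mice and 1 SD. CASP8 IEC-KO mice are the low group for Spink4, Cyb5r3 and Sdc4, while Pisd-ps3 is also split between the floxed lines (8.20 to 8.42 against 9.23 to 9.37).

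The calls differed in how far they rested on single mice. When each of the 10 knockout mice was left out in turn, Casp8 stayed called every time, and the limma call of Fadd was lost for 2 mice and that of Spink4 for 3 (FADD IEC-KO replicates 2 and 3 and CASP8 IEC-KO replicate 3), with adjusted p up to 0.116. The calls of Cyb5r3 (lost for 7 mice), Sdc4 (for 9) and Pisd-ps3 (for 9) sat at the threshold, with adjusted p up to 0.171, 0.171 and 0.149. Their differences moved little, from 0.61 to 0.72 for Cyb5r3, from 0.37 to 0.41 for Sdc4 and from -0.96 to -0.85 for Pisd-ps3.

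After the difference between floxed lines was subtracted, 0 genes were called by limma (1271 at an unadjusted p under 0.05, 6.52%). Under this stricter contrast, (FADD IEC-KO minus Fadd fl/fl) minus (CASP8 IEC-KO minus Casp8 fl/fl), Casp8 itself had a value of 0.99 with a limma adjusted p of 0.064 and Fadd of -1.10 with a limma adjusted p of 0.095. Since the targeted genes were not called here either, this 0 does not show that other genes did not differ. The values were 0.45 for Spink4, 0.36 for Cyb5r3 and 0.30 for Sdc4. Leaving out Fadd fl/fl replicate 1 gave 10 calls and leaving out FADD IEC-KO replicate 5 gave 6.

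The 2 groups did not overlap for 172 genes (0.882%), 111 higher (0.569%) and 61 lower (0.313%) in FADD IEC-KO. For a gene without a group difference, the exact permutation test gives complete separation a probability of 0.0079. The observed share lies near that chance level, so the uncalled genes named from this set are only a description. The floxed lines did not overlap for 219 genes (1.12%), which is more than between the knockouts. By size of difference among these genes, those higher in FADD IEC-KO included Scnn1g, a subunit of the epithelial sodium channel (0.86 ± 0.19, limma adjusted p = 0.107). Scnn1g stood at 5.07, 6.51, 5.22, 5.17 and 5.54 in FADD IEC-KO mice and at 4.43, 4.82, 4.94, 4.34 and 4.66 in CASP8 IEC-KO mice. Replicate 2 was by far the highest FADD IEC-KO mouse, and the FADD IEC-KO mice also lay above all Fadd fl/fl mice (4.18 to 4.57). Scnn1g rose over its own floxed controls in FADD IEC-KO (1.16, limma adjusted p = 0.0003) and stood at -0.02 in CASP8 IEC-KO.

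The remaining genes of this kind, none of them called, ranged from 0.52 to 0.44. They were Ankrd37, Hgfac (a protease that activates hepatocyte growth factor), Zfp820, Sh3bgrl, Tph1 (the enterochromaffin enzyme of serotonin synthesis), E2f8 (a cell cycle transcription factor), Srgap1, Dram1, Fxyd3 and Lss. Genes lower in FADD IEC-KO ranged from -0.82 to -0.42. They were Isg15, Il22ra2 (the soluble decoy receptor of interleukin-22), Ifi27l2b, Lamb3 (a laminin chain of the basement membrane), Casp14, Rnf144b, H2-M5, Tmem200a, Dntt, Ide (insulin-degrading enzyme), Ntng1, Dnajb4 and Ifi27l2a. Il22ra2 stood at 4.71, 4.01, 4.32, 4.28 and 4.11 in FADD IEC-KO mice and at 4.94, 4.86, 4.85, 5.16 and 5.09 in CASP8 IEC-KO mice. It was below its floxed controls in FADD IEC-KO (-0.86, limma adjusted p = 0.0032) and differed from them by -0.19 in CASP8 IEC-KO (limma adjusted p = 0.61). The direct difference was -0.69 ± 0.18 and was not called (limma adjusted p = 0.193).

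Chromosomal neighbours of the targeted genes were examined because each line carries its own floxed locus. Of the 18 measured genes nearest to Fadd and the 20 nearest to Casp8, 0 were called by limma between the knockouts (0.0308% of all genes). Between the floxed lines 0 were called too (0.00513% of all genes). With so few calls among all genes, 0 in sets of this size says little. Between the Mlkl-/- groups, 0 of 18 near Fadd and 2 of 20 near Casp8 were called, against 2.26% of all genes: Fzd7 (0.44, limma adjusted p = 0.047) and Nop58 (0.57, limma adjusted p = 0.022). At an unadjusted p under 0.05 there were 3 of 18 genes near Fadd and 2 of 20 near Casp8 between the knockouts, against 6.9% of all genes. All neighbours were named after their values were seen. The 5 were Dhcr7 (0.30), Shank2 (0.20) and Mrgprf (-0.33) near Fadd, and Bzw1 (0.21) and Orc2 (0.32) near Casp8.

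Of 22 measured genes of the death receptor and necroptosis machinery, 2 were called (0.0308% of all genes), which are the deleted genes Fadd and Casp8 themselves. An interval within 2-fold was found for 19 of the 22, against 98.9% of all genes. At an unadjusted p under 0.05 there were 2 higher (3.42% of all genes) and 3 lower (3.48%) in FADD IEC-KO, Fadd, Casp8 and Tnf among them. Mlkl, the executioner, had a difference of 0.15 ± 0.19. Ripk3, the kinase that activates MLKL, had a difference of -0.19 ± 0.16, and Zbp1, the nucleic acid sensor that engages RIPK3, of 0.09 ± 0.29. The ligand gene Tnf stood at 6.42, 6.01, 7.31, 5.52 and 6.35 in FADD IEC-KO mice and at 5.13, 5.81, 5.68, 5.42 and 5.84 in CASP8 IEC-KO mice. The groups overlapped only through FADD IEC-KO replicate 4. The difference was 0.74 ± 0.25 and was not called (limma adjusted p = 0.452, exact permutation p = 0.0397). Without MLKL the Tnf difference was 0.89 (limma adjusted p = 0.046), and against the own floxed controls Tnf rose in FADD IEC-KO (1.44, limma adjusted p = 0.00041) and stood at 0.46 in CASP8 IEC-KO (limma adjusted p = 0.32).

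Paneth cells secrete alpha-defensins, lysozyme and other antimicrobial proteins. Of 20 measured alpha-defensin genes, 0 were called by limma and 0 had an unadjusted p under 0.05 between the knockouts, and the median difference was 0.19 beside 0.0075 over all genes. Against the own floxed controls all 20 were called lower in each knockout (1.92% of all genes for FADD and 1.28% for caspase-8), with a median of -2.51 in FADD IEC-KO and -2.70 in CASP8 IEC-KO. In bulk tissue, fewer cells of a type and less RNA per cell cannot be told apart. The mean level of these genes, set to 0 at the mean of the floxed controls, was -1.39, -3.18, -2.16, -2.24 and -3.65 in FADD IEC-KO replicates 1 to 5. It was -0.30, -4.36, -2.43, -4.28 and -1.97 in CASP8 IEC-KO replicates 1 to 5. CASP8 IEC-KO thus held both the mouse closest to the controls and the 2 mice farthest from them. The mouse closest to the controls, replicate 1, is also the one with the highest Casp8 of its group. A link between these levels was not tested.

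The spread between mice limits what the defensin comparison can show. The median SD of the 20 genes was 0.91 in FADD IEC-KO and 1.76 in CASP8 IEC-KO, against 0.18 and 0.21 in the floxed groups. The interval lay within 2-fold for only 3 of the 20, against 98.9% of all genes. These intervals use 1 estimate of spread per gene shared by all groups, so they do not show the full spread of the knockout groups. Defa3 and Defa17, which carried the same values on every array, had a difference of 0.42 with an interval from -0.51 to 1.36. Defa25 had a difference of 0.31 with an interval from -0.36 to 0.99. Near-identical defensin copies can share probe sequence, so single members are uncertain. Without both replicate 1 mice the median over the list was 0.48.

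Of 14 other Paneth cell products, 0 were called by limma and 3 had an unadjusted p under 0.05, all higher in FADD IEC-KO (3.42% of all genes in this direction). Mmp7, the metalloprotease that activates alpha-defensins in mice, stood at 8.74, 8.96, 9.30, 8.55 and 9.17 in FADD IEC-KO mice and at 8.15, 8.58, 8.004, 7.93 and 7.97 in CASP8 IEC-KO mice. Only CASP8 IEC-KO replicate 2 reached the range of the other group. The difference was 0.81 ± 0.25 (limma adjusted p = 0.38, exact permutation p = 0.016). Sox9, a crypt transcription factor needed for Paneth cells, differed by 0.48 and the antibacterial phospholipase Pla2g2a by 0.87, neither called. The median of the 14 genes was 0.06, and between the floxed lines it was 0.48.

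Goblet cells make the mucus layer. Of 16 measured goblet cell genes, 1 was called, Spink4, and 10 had an unadjusted p under 0.05, all higher in FADD IEC-KO, against 3.42% of all genes. Only 1 gene of the list had a difference below 0. The median difference was 0.24 in the knockouts, 0.06 between the floxed lines and 0.04 in Mlkl-/- mice. Muc2, the gel-forming mucin, stood at 12.87, 12.99, 12.93, 13.01 and 12.80 in FADD IEC-KO mice and at 12.88, 12.54, 12.62, 12.63 and 12.78 in CASP8 IEC-KO mice. CASP8 IEC-KO replicate 1 lay inside the FADD IEC-KO range and the other CASP8 IEC-KO mice below it. The Muc2 difference was 0.23 ± 0.06 (limma adjusted p = 0.234) and that of Tff3, a trefoil peptide of mucus, 0.33 ± 0.09 (limma adjusted p = 0.276). In CASP8 IEC-KO both were below their own floxed controls, Muc2 at -0.29 (limma adjusted p = 0.0047) and Tff3 at -0.43 (limma adjusted p = 0.0061). In FADD IEC-KO the values were -0.08 and -0.14, neither called. Over the list, 10 of 16 genes were called lower in CASP8 IEC-KO against its own controls (1.28% of all genes) and 1 of 16 in FADD IEC-KO (1.92% of all genes). The test of the difference between these deletion effects called 0 of the 16 by limma.

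The mean level of the goblet cell genes was -0.02, 0.17, -0.23, -0.02 and -0.23 in FADD IEC-KO mice and -0.20, -0.46, -0.39, -0.52 and -0.33 in CASP8 IEC-KO mice. Again CASP8 IEC-KO replicate 1 was the mouse of its group nearest to the controls, and it alone overlapped the other group. Without both replicate 1 mice the median over the list was 0.29. The differences are small: for 15 of the 16 genes the interval lay within 2-fold, against 98.9% of all genes. The exception was Retnlb (1.003, interval 0.07 to 1.93), an antibacterial goblet cell peptide that varied widely between mice.

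**Figure D3:**
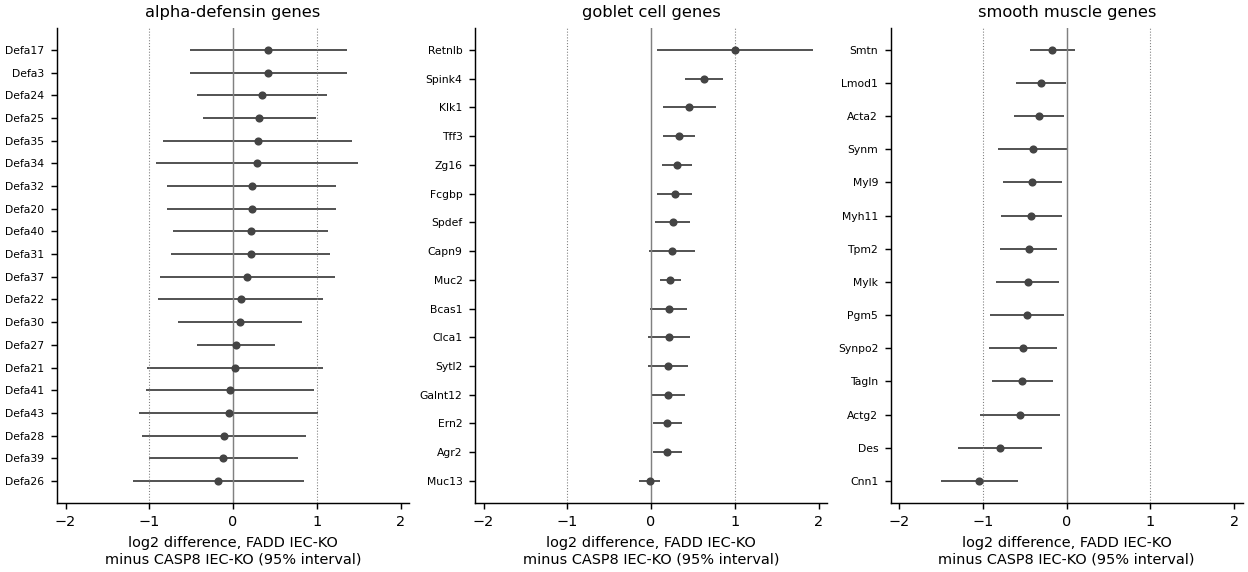
Difference FADD IEC-KO minus CASP8 IEC-KO with its 95% interval for each measured alpha-defensin, goblet cell and smooth muscle gene. The dotted lines mark 2-fold; defensin intervals are wide and span 0, goblet cell genes lie mostly above 0 and smooth muscle genes all below 0.

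Other epithelial programmes gave no calls. Their counts at an unadjusted p under 0.05 stand beside 3.42% of all genes higher and 3.48% lower in FADD IEC-KO. All 15 enterocyte digestion genes had a difference below 0, with a median of -0.20, and 0 had an unadjusted p under 0.05 or were called by limma. The floxed lines had a median of -0.13 for them. Treh, the brush border trehalase, had a difference of -0.51 ± 0.28. Of 15 lipid absorption genes 3 had an unadjusted p under 0.05, all lower in FADD IEC-KO: Dgat1, which makes triglyceride (-0.27), the cholesterol importer Npc1l1 (-0.30) and the sterol exporter subunit Abcg8 (-0.39). All 14 cholesterol synthesis genes lay above 0, with a median of 0.14, and 4 had an unadjusted p under 0.05, among them Lss (0.44), Dhcr7 (0.30) and Nsdhl (0.30). Of 24 xenobiotic metabolism genes 4 had an unadjusted p under 0.05, all lower in FADD IEC-KO. Among them Cyp3a25, a cytochrome P450, differed by -1.06 ± 0.45, the carboxylesterase Ces1f by -0.61 ± 0.19 and the glutathione transferase Gstm1 by -0.42 ± 0.17.

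Of 12 ileal bile acid and cobalamin genes 3 had an unadjusted p under 0.05, all lower: the cobalamin receptor subunit Cubn (-0.59), the bile acid receptor Nr1h4 (-0.22) and the cobalamin carrier Tcn2 (-0.29). All 19 cell cycle genes lay above 0 with a median of 0.15, although the floxed lines had a median of 0.13 for them. Mki67, a marker of dividing cells, had a difference of 0.32 ± 0.11. Of 17 enteroendocrine genes 1 had an unadjusted p under 0.05 in each direction, with Tph1 higher (0.47) and the granin Scg2 lower (-0.48). Of 13 tuft cell genes there was also 1 in each direction, the kinase Dclk1 at -0.36 and the leukotriene synthase Ltc4s at 0.17. Neither of these lists had a call.

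Genes of the type I interferon response form an antiviral programme, and many of their promoters hold the interferon-stimulated response element. The promoter windows of Isg15 and Oas1a, both members of the list that were lower in FADD IEC-KO at an unadjusted p under 0.05, are shown because most of the list lay below 0 and both windows hold letters of this element. They run from 250 bases before to 50 bases after the gene start, on build GRCm38.p6 from RefSeq, 5′ to 3′ on the gene's strand, at chr4:156200769-156201068 (minus strand) for Isg15 and chr5:120907476-120907775 (minus strand) for Oas1a. Capitals mark matches of the searched motif, which is GAAA, any 2 bases and GAAA again, on either strand, and overlapping matches run together.
Isg15: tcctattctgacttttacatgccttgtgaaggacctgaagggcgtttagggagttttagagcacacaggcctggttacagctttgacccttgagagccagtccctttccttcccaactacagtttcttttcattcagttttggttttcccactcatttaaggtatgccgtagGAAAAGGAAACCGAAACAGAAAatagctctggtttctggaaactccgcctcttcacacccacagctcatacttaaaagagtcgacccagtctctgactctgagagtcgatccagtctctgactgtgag
Oas1a: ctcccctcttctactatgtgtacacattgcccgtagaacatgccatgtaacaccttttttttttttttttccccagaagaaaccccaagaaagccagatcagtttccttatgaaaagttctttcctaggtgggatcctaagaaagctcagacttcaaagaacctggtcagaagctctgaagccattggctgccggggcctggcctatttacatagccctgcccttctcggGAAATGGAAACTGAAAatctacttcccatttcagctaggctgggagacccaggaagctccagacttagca
The Isg15 window holds 3 matches and the Oas1a window 2. Of the 30 measured genes of the list 22 had a promoter in the table and 12 of these genes held the motif in at least 1 listed promoter, against 3.99% of the 27025 genes with a promoter in the table and 3.44% of all 32851 promoters of this length. A match is a run of letters and not a measured binding site.

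Of the 30 type I interferon genes, 0 were called by limma between the knockouts, and 10 had an unadjusted p under 0.05, all lower in FADD IEC-KO, against 3.48% of all genes. The median difference was -0.30, beside -0.02 between the floxed lines. Isg15, a ubiquitin-like modifier, stood at 5.94, 5.21, 5.60, 5.24 and 5.35 in FADD IEC-KO mice and at 6.31, 5.97, 6.84, 6.32 and 5.99 in CASP8 IEC-KO mice. The groups did not overlap, with FADD IEC-KO replicate 1 the highest of its group. The difference was -0.82 ± 0.28 (limma adjusted p = 0.478). The exact permutation p of 0.0079 only restates the lack of overlap for which Isg15 was named.

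Oas1a, an antiviral oligoadenylate synthetase, stood at 7.43, 6.60, 6.75, 6.50 and 7.10 in FADD IEC-KO mice and at 7.16, 7.61, 7.91, 7.55 and 7.35 in CASP8 IEC-KO mice. FADD IEC-KO replicate 1 lay among the CASP8 IEC-KO mice. The difference was -0.64 ± 0.19 (limma adjusted p = 0.352). Rtp4, an interferon-induced protein, stood at 6.06, 4.60, 4.25, 4.45 and 5.11 in FADD IEC-KO mice and at 6.12, 5.81, 6.17, 5.91 and 5.58 in CASP8 IEC-KO mice. Here too only FADD IEC-KO replicate 1 overlapped, and the difference was -1.02 ± 0.23 (limma adjusted p = 0.124). The relative Oas1g differed by -0.57 ± 0.19 (limma adjusted p = 0.431).

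The mean level of the interferon genes was 0.32, -0.47, -0.44, -0.69 and -0.27 in FADD IEC-KO mice and 0.04, -0.20, 0.30, 0.04 and -0.07 in CASP8 IEC-KO mice. FADD IEC-KO replicate 1 was the highest of all 10, and the other FADD IEC-KO mice were below all CASP8 IEC-KO mice. Replicate 1 also had the highest Fadd of its group, and whether these levels are linked was not tested. Without both replicate 1 mice the median over the list was -0.43. Without FADD IEC-KO replicate 1 alone, Rtp4 differed by -1.31 and was called (limma adjusted p = 0.0014). In Mlkl-/- mice the list differed the same way, with a median of -0.69 and 10 of 30 called lower in the FADD line (1.54% of all genes), among them Oas1a (-0.72, limma adjusted p = 0.033). Isg15 was higher in both Mlkl-/- groups than in any knockout mouse, ranging from 7.14 to 8.70 in FADD IEC-KO Mlkl-/- and from 8.18 to 8.87 in CASP8 IEC-KO Mlkl-/- mice.

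Interferon gamma response genes and MHC class II genes varied widely between mice. All 15 interferon gamma response genes lay above 0 with a median of 0.38, and 2 had an unadjusted p under 0.05 (3.42% of all genes in this direction), with 0 calls by limma. Ido1, the tryptophan-degrading enzyme, stood at 10.15, 8.96, 9.63, 7.42 and 8.64 in FADD IEC-KO mice and at 9.19, 6.11, 7.78, 6.79 and 7.62 in CASP8 IEC-KO mice. The groups overlapped widely. The difference was 1.47 ± 0.38 (limma adjusted p = 0.202, exact permutation p = 0.079), and for the GTPase Iigp1 it was 1.25 ± 0.46. The mean level of the 7 MHC class II genes was 0.27, -0.22, -0.07, -2.51 and -0.12 in FADD IEC-KO mice and -0.11, -2.13, -0.79, -0.94 and -0.60 in CASP8 IEC-KO mice. FADD IEC-KO replicate 4 and CASP8 IEC-KO replicate 2 stood far below the rest. The median difference of 0.39 had 0 calls by limma and 0 genes at an unadjusted p under 0.05.

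**Figure D4:**
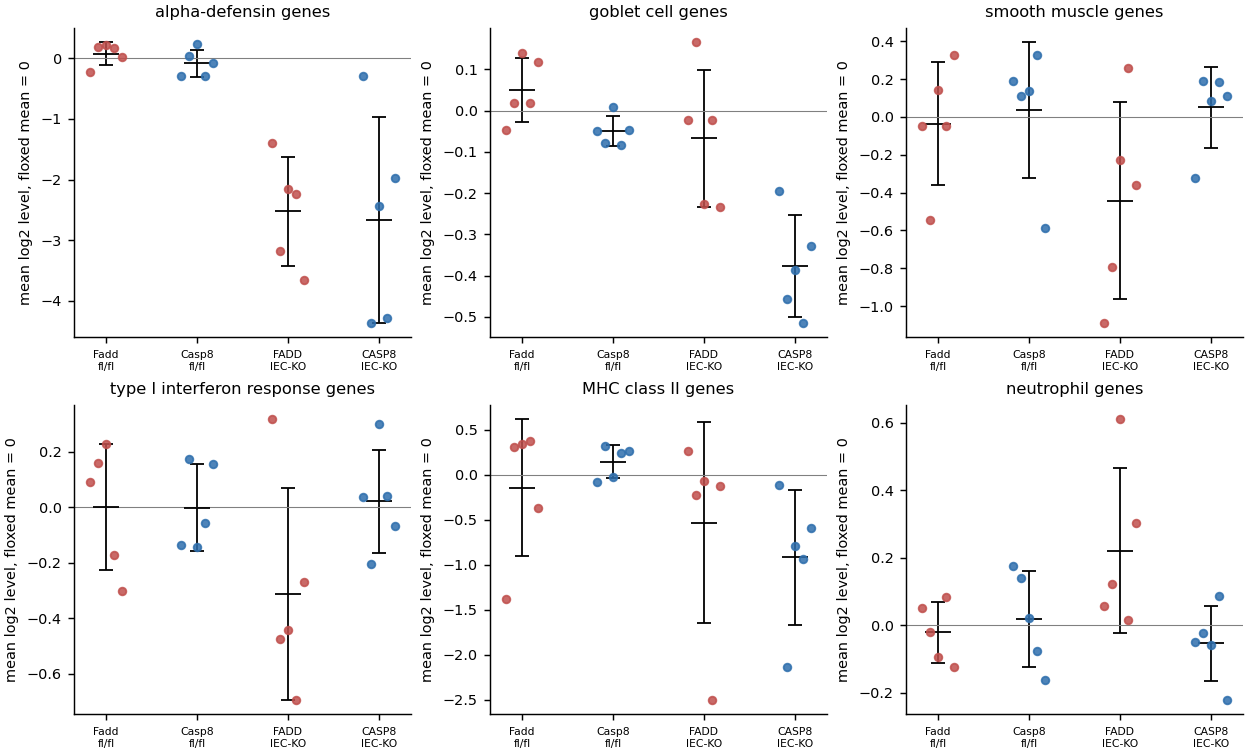
Mean log2 level of 6 gene lists in every mouse of the knockout and floxed groups, set to 0 at the mean of the floxed controls, with the mean of 5 mice and 1 SD. Goblet cell genes run from -0.52 to -0.20 in CASP8 IEC-KO and from -0.23 to 0.17 in FADD IEC-KO mice. Smooth muscle and type I interferon genes lie below 0 in 4 of 5 FADD IEC-KO mice. In CASP8 IEC-KO mice their lowest levels are -0.32 and -0.20. Alpha-defensins are low and widely spread in both knockouts.

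Among inflammatory genes, 5 of 13 neutrophil genes had an unadjusted p under 0.05, all higher in FADD IEC-KO (3.42% of all genes in this direction), and 0 were called by limma. S100a8, an alarmin of neutrophils, stood at 4.43, 4.23, 5.69, 3.06 and 4.59 in FADD IEC-KO mice and at 2.59, 4.12, 3.49, 4.14 and 2.70 in CASP8 IEC-KO mice. FADD IEC-KO replicate 3 was highest and replicate 4 lay among the CASP8 IEC-KO mice. The difference was 0.99 ± 0.28 (limma adjusted p = 0.257, exact permutation p = 0.095). Its partner S100a9 differed by 0.65 ± 0.19 and Retnlg, a neutrophil resistin-like peptide, by 0.61 ± 0.19. Floxed mice ranged from 2.72 to 3.24 for S100a8, so the values lie low on the scale of the array. Of 32 cytokine, chemokine and NF-kB genes 4 had an unadjusted p under 0.05, all higher in FADD IEC-KO, among them Tnf, the interleukin-1 decoy receptor Il1r2 (0.33) and the chemokine Ccl25 (0.19). Of 17 T cell and intraepithelial lymphocyte genes and of 15 macrophage and monocyte genes, 0 had an unadjusted p under 0.05 and 0 were called by limma, with medians of -0.18 and 0.03. Between the floxed lines these medians were -0.17 and 0.28.

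Of 19 measured gasdermin and inflammasome genes, 0 were called by limma between the knockouts. Of these, 8 lay above 0 and 11 below, with a median of -0.03. At an unadjusted p under 0.05 there were 1 higher (3.42% of all genes) and 4 lower (3.48%) in FADD IEC-KO. The 3 members with the smallest p belong to the gasdermin C family. This family is expressed in gut epithelium and encodes relatives of the pore-forming gasdermin D. Gsdmc4 stood at 8.92, 6.58, 6.60, 8.05 and 7.50 in FADD IEC-KO mice and at 9.56, 8.04, 8.65, 8.76 and 8.86 in CASP8 IEC-KO mice. FADD IEC-KO replicate 1 lay inside the CASP8 IEC-KO range, replicate 4 at its lower end, and the others below it. The difference was -1.25 ± 0.34 (limma adjusted p = 0.257, exact permutation p = 0.071). Gsdmc3 differed by -1.20 ± 0.35 and Gsdmc2 by -1.02 ± 0.33, neither called. All 3 were called lower in FADD IEC-KO against the own floxed controls (-1.99, -1.97 and -1.84 for Gsdmc4, Gsdmc3 and Gsdmc2), with values of -0.74, -0.79 and -0.86 in CASP8 IEC-KO, none called. Over the list, 4 of 19 genes were called lower in FADD IEC-KO against its controls (1.92% of all genes). In Mlkl-/- mice the line differences of the 3 were -1.29, -1.46 and -1.44 in the same order, all called. There 5 of 19 list genes were called lower in the FADD line (1.54% of all genes) and 1 higher (0.718%). The 3 genes are close paralogs, and probes may not keep them apart.

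Markers of the muscle layer were examined as a sign of tissue make-up. All 14 smooth muscle genes had a difference below 0, and 12 had an unadjusted p under 0.05 (3.48% of all genes in this direction), with a median of -0.46, beside -0.07 between the floxed lines. None was called by limma. Cnn1, the smooth muscle calponin, stood at 9.26, 9.40, 10.41, 10.58 and 10.40 in FADD IEC-KO mice and at 10.41, 11.66, 11.14, 10.98 and 11.06 in CASP8 IEC-KO mice. FADD IEC-KO replicates 1 and 2 lay below all other mice, and CASP8 IEC-KO replicate 1 lay inside the FADD IEC-KO range. The difference was -1.04 ± 0.23 (limma adjusted p = 0.0764). Des, the muscle intermediate filament desmin, differed by -0.80 ± 0.25 and Tagln, transgelin, by -0.53 ± 0.18. The mean level of the list was -1.09, -0.79, -0.23, 0.26 and -0.36 in FADD IEC-KO mice and -0.32, 0.19, 0.08, 0.19 and 0.11 in CASP8 IEC-KO mice. FADD IEC-KO replicates 1 and 2 were the lowest of the 10 mice, and replicate 4 was the highest. Of 11 enteric neuron and glia genes 4 had an unadjusted p under 0.05, all lower in FADD IEC-KO (3.48% of all genes in this direction), among them Chat, which makes acetylcholine (-0.39), Elavl4 (-0.50) and Uchl1 (-0.44), with 0 calls by limma. Without both replicate 1 mice the smooth muscle median was -0.38. Without MLKL the smooth muscle median was -0.67, with 8 of 14 genes called lower in the FADD line (1.54% of all genes). The part of muscle content in the differences of other gene groups was not tested.

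The line difference without MLKL was larger in number of calls. FADD IEC-KO Mlkl-/- and CASP8 IEC-KO Mlkl-/- differed in 440 genes (2.26%), 140 higher (0.718%) and 300 lower (1.54%) in the FADD line, and their groups did not overlap for 1372 genes (7.04%). The median SD over all genes was 0.156 and 0.157 in these groups, against 0.190 in FADD IEC-KO and 0.180 in CASP8 IEC-KO. These SDs do not enter the limma calls group by group. The fit takes 1 spread per gene for all groups, so a gene has the same standard error with and without MLKL. The Mlkl-/- comparison shares no array with the direct one. Of the 438 genes called there without Fadd and Casp8, 333 (76.0%) had the same sign in the knockouts, where their median difference in that direction was 0.13, against a median size of 0.55 in Mlkl-/- mice. Fadd and Casp8 were the only genes called in both, which is 33.3% of the calls in the knockouts and 0.455% of those in Mlkl-/- mice. Across 19492 genes without Fadd and Casp8, the differences with and without MLKL had a Pearson correlation of 0.30 and a Spearman correlation of 0.25. Genes are not independent replicates. With the floxed line difference the Pearson correlation of the knockout difference was 0.096.

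**Figure D5:**
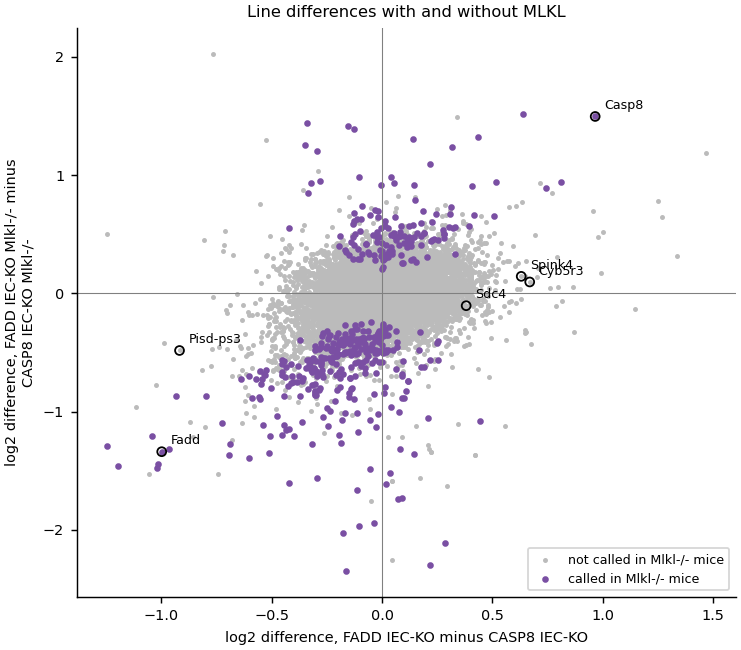
Each point is a gene, with the line difference in mice with MLKL on the x axis and in Mlkl-/- mice on the y axis, both in log2 units. Purple points are the 440 genes called in Mlkl-/- mice, and circles mark the 6 genes called with MLKL, of which Fadd and Casp8 lie far from 0 on both axes while Spink4, Cyb5r3 and Sdc4 lie near 0 on the y axis.

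For the alpha-defensins, the median line difference in Mlkl-/- mice was -1.35, with 6 of 20 called lower in the FADD line (1.54% of all genes), against 0.19 and 0 calls with MLKL. Defa3 ranged from 9.82 to 10.96 in FADD IEC-KO Mlkl-/- mice and from 11.36 to 11.94 in CASP8 IEC-KO Mlkl-/- mice, while floxed mice ranged from 11.74 to 12.26. The test of the change itself, line difference with MLKL minus line difference without it, called 0 of the 20 defensins and 11 genes in all (0.0564%), with 1229 genes at an unadjusted p under 0.05 (6.3%). For Defa3 that change was 1.79 with a limma adjusted p of 0.533. Of the 11 genes, 9 with gene names follow.

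Gsta2, a glutathione transferase of alpha class, had the largest change toward a lower value with MLKL: its line difference was -0.30 with MLKL and 1.21 without, a change of -1.50 ± 0.26 (limma adjusted p = 0.0085). It ranged from 9.47 to 10.06 in FADD IEC-KO and from 9.37 to 10.64 in CASP8 IEC-KO, and from 9.97 to 10.53 and from 8.47 to 9.38 in the matching Mlkl-/- groups, which did not overlap. Enpp3, an ectonucleotide pyrophosphatase, changed the other way, from 0.44 with MLKL to -1.08 without (change 1.53 ± 0.28, limma adjusted p = 0.0085). Il22ra1, the receptor subunit through which interleukin-22 acts on epithelium, had a line difference of -0.17 with MLKL and -1.01 without (change 0.84 ± 0.15, limma adjusted p = 0.0085). It ranged from 8.39 to 8.80 in FADD IEC-KO Mlkl-/- mice and from 9.54 to 9.76 in CASP8 IEC-KO Mlkl-/- mice. The other six were Adss, Cntnap1, Pdgfc, Glcci1, Ppm1k and Efl1, and in each of the 9 the larger line difference was the one in Mlkl-/- mice.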

How the data were processed

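Ileum RNA of 45 mice in 9 groups of 5 was hybridised to whole-transcript arrays from 100 ng total RNA, per the labels' protocols. The deposited values are log2 intensities made by the authors with Affymetrix Expression Console and Transcriptome Analysis Console (named in the submitters' processing notes). Their summarization, normalization and versions are not given in the sources used here. Array medians lay between 6.36 and 6.44, and the number of arrays limits the precision.

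Groups were taken from sample titles. Of 22142 probes, 19527 had 1 gene symbol and 2615 had none, and each of the 19494 genes was represented by its probe of highest mean. Differences were tested with limma 3.58.1 in R 4.3.3 (lmFit, eBayes, 36 residual degrees of freedom) on all 45 arrays, with exact permutation tests for single genes. Each replicate is an array of 1 mouse as titled. Gene lists were described by counts and medians. The members and lists were chosen with earlier results of these data known.

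Named genes were the targeted genes, the called genes, and, up to 15 per direction, the largest differences among genes whose groups did not overlap. Up to 3 members with the smallest p were named per list. Genes with changed line differences by MLKL and neighbours of the targeted loci were named after their values were seen. Genes known only by locus names were counted and not printed. Alternatives covered the arrays in the fit, title numbers, Y-linked level, scaling, a level filter, array weights, variance settings, all probes and left-out mice. The fits were tested on simulated data.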

Additional observations from a re-analysis of the deposited data

Results flagged for a closer look

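In the groups of 5 mice, 8 of 146 sets of values tested held 1 mouse far from the other 4, and chance flags about 1 in 20 groups. Among named genes, Tph1 stood at 6.34 in CASP8 IEC-KO replicate 5 against 6.13 to 6.18 in the others of its group. Pisd-ps3 stood at 9.45 in CASP8 IEC-KO replicate 1 against 9.14 to 9.23. Dnajb4 stood at 7.34 in FADD IEC-KO replicate 3 against 7.01 to 7.08.

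Among the mean levels of gene lists, set to 0 at the floxed controls, MHC class II stood at -2.51 in FADD IEC-KO replicate 4 against -0.22 to 0.27 in the others. The same mouse had the mean level of antimicrobial lectins and oxidases at -0.19 against 0.26 to 0.33. Smooth muscle stood at -0.32 in CASP8 IEC-KO replicate 1 against 0.08 to 0.19. Carbonic anhydrases stood at 0.72 in CASP8 IEC-KO replicate 5 against 0.15 to 0.24, and MHC class I at -0.51 in CASP8 IEC-KO replicate 2 against -0.20 to -0.09.

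The line difference itself changed with MLKL for 9 named genes, by limma's test of the change. The line difference with MLKL minus that without was -0.75 for Adss, an enzyme of AMP synthesis, -1.50 for Gsta2, -1.24 for Cntnap1 and -0.54 for Efl1. It was 1.53 for Enpp3, 0.85 for Pdgfc, a platelet-derived growth factor, 0.84 for Il22ra1, 0.80 for Ppm1k and 0.78 for Glcci1. Adjusted p-values of these limma tests ran from 0.0068 to 0.042.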

How the results depend on the processing

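The number of genes called between the knockouts, 6, was 1 with the compared groups alone, 2 with the knockout and floxed groups, 1 with knockout mice of title numbers under 100, 10 with genes above the median level and 32 with array weights. With single mice left out the count ran from 1 (either FADD IEC-KO replicate 2 or 3 missing) to 17 (FADD IEC-KO replicate 4 missing), and was 12 with FADD IEC-KO replicate 1 missing. Between the floxed lines, 1 call became 2 with the groups alone, 0 with title series as covariate, 8 with Y-linked level, 11 with quantile normalization, 23 above the median level, 15 with array weights and 9 with trend and robust variance. Leaving out 1 mouse gave 0 to 63, the latter without Fadd fl/fl replicate 1. In Mlkl-/- mice, 440 became 876 with the groups alone and 1364 with array weights, and 247 to 429 with 1 mouse left out. For the difference of the deletion effects, 0 became 4 with quantile normalization, 17 above the median level, 11 with array weights, 6 with trend and robust variance, 2 without both replicate 1 mice, and 0 to 10 with 1 mouse left out, the latter without Fadd fl/fl replicate 1. For the change with MLKL, 11 became 19 above the median level and 56 with array weights, and 7 to 25 with 1 mouse left out, the latter without CASP8 IEC-KO replicate 1. The alternatives for the floxed lines, the Mlkl-/- groups and the change with MLKL were chosen after seeing the data. These differ in the genes tested, in samples and in the estimate of spread, and the cause was not tested. Among single genes, Zbp1 turned to -0.15 with FADD IEC-KO replicate 1 missing, to -0.03 with replicate 3 missing and to -0.10 with both replicate 1 mice missing, with a range of -0.15 to 0.38 over left-out mice. Mlkl turned to -0.052 without both replicate 1 mice. Defa3 and Defa17 turned to -0.034 without CASP8 IEC-KO replicate 2 and ran up to 1.03. Of 22 settings, Casp8 was called in 20, Fadd in 17, Spink4 in 16, Cyb5r3 in 12, Pisd-ps3 in 10 and Sdc4 in 9. No paired analysis was possible because the titles share no replicate numbers across groups.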

Other observations

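Among the 2615 probes without a gene symbol, 0 were called between the knockouts by limma (173 at an unadjusted p under 0.05) and 43 between the Mlkl-/- groups.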
